A study of Mus musculus with 4 samples.

Results

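The PDGF receptors and ligands are 6 of the 28692 genes listed for these libraries, chosen by name: the receptor genes *Pdgfra* and *Pdgfrb* and the ligand genes *Pdgfa*, *Pdgfb*, *Pdgfc* and *Pdgfd*. All 6 were listed and had unique molecular identifiers (UMIs, each standing for 1 captured RNA molecule) in all 4 libraries. The libraries held sorted mesenchymal stromal cells (MSC) of untreated mouse embryos at embryonic day E12.5, 2 from the large intestine (LI, cecum included) and 2 from the small intestine (SI). The strain label of every library was EYFP (C57BL/6), and EYFP males had been mated with C57BL/6Nrj females. Embryos were pooled within each of 2 independent experiments, so a library is a pool and not an animal, and differences between libraries may be technical as well as biological. Every library came from live cells sorted as CD45-, Ter119-, CD31- and EpCAM-, and as Itgb1+ and YFP+. The gate used no PDGF receptor, and it was set to leave out blood, endothelial and epithelial cells.

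Platelet-derived growth factors (PDGFs) are secreted dimers that bind a pair of receptor tyrosine kinases on mesenchymal cells. PDGFRα binds PDGF-A, PDGF-B and PDGF-C chains, whereas PDGFRβ binds PDGF-B and PDGF-D. In the developing gut, epithelial PDGF-A is known to act on PDGFRα+ mesenchyme during villus formation, and endothelial PDGF-B is known to recruit PDGFRβ+ pericytes.

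The deposited files held 5151 to 6881 cell barcodes per library, of which 22094 cells were kept after filters on genes, mitochondrial reads and doublets, namely 10709 of LI and 11385 of SI. Kept cells of LI replicate 1 were shallow, at a median of 4220.5 UMIs, and those of the other 3 libraries had medians of 8382 to 8829. Pairs of libraries shared 8 to 15 cell barcodes. Cells were clustered after the 6 members and the related pathway genes had been taken out of the clustering genes, so that no class was defined by a gene described here. Of the 10 clusters, 7 could be named from marker genes: 3 fibroblast-like clusters (FB-like, clusters 0, 2 and 4, 10935 cells), 1 smooth muscle-like (SMC-like, cluster 1, 4923 cells), 1 mesothelial-like (cluster 6, 1319 cells) and 2 neural-like (clusters 7 and 8, 1246 cells). FB-like here means other mesenchyme, because FB markers such as *Col1a1* and *Dcn* were detected in all 4 classes, and their summed level set FB-like cells, at 1153 to 1919 CPM (counts per 1e6 UMIs of the class and library), apart from neural-like cells only. It was 1093 to 1835 CPM in SMC-like cells and 1532 to 3764 CPM in mesothelial-like cells, which in SI lay above all FB-like levels. The defining markers of the other 3 classes were abundant in them. Summed mesothelial markers were at 2385 to 2651 CPM in mesothelial-like cells and neural markers at 4062 to 5632 CPM in neural-like cells. Summed smooth muscle markers were at 2020 to 11662 CPM in SMC-like cells, and FB-like cells had 1156 to 2224 CPM of them. These ranges overlapped over all libraries, though not within LI or within SI. Clusters 3, 5 and 9 (3671 cells) stayed unnamed. Cluster 3 was led by *Bmp3* and *Col14a1*, and of the 8 pericyte markers only *Rgs5* was among its leading genes. Cluster 5 was led by *Hist1h2bc*, *Epcam*, *Ccnb2* and *Cenpa*, and of the 9 epithelial markers only *Epcam* was among its leading genes. Of the 181 cells of cluster 9, 160 came from LI replicate 2. *Ptprc*, which encodes the CD45 of the gate, had no UMI in any of the 4 named classes.

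Levels are given as CPM throughout, and shares of cells are given after each cell was thinned to 3000 UMIs, which makes libraries of unequal depth comparable. Thinning left out 20.2% of the FB-like cells of LI replicate 1, which were shallower than that, and 1.41% to 4.16% of those of the other libraries. The kit is a 3′ or a 5′ kit and counts UMIs and not transcript length, so levels of different genes are not ranked against each other. Values are listed as LI replicate 1, LI replicate 2, SI replicate 1 and SI replicate 2 throughout.

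*Pdgfra*, on mouse build mm10 at chr5:75152292-75198215 on the plus strand, encodes PDGFRα, the receptor that marks most intestinal FB. It was at a like level in FB-like and SMC-like cells and close to absent from mesothelial-like and neural-like cells. In FB-like cells its level was 69.3, 95.6, 84.1 and 96.2 CPM, and in SMC-like cells it was 74.3, 99.0, 90.9 and 113 CPM. The SMC-like level was the higher in every library, yet the ranges of the 2 classes overlapped. In mesothelial-like cells *Pdgfra* had 7, 3, 10 and 2 UMIs (2.33, 1.19, 4.50 and 1.27 CPM), and in neural-like cells it had 4, 5, 7 and 2 UMIs (1.69, 0.897, 1.52 and 0.367 CPM). Both classes therefore lay far below FB-like and SMC-like cells in every library. Their counts ran from 2 to 10 UMIs, beside the 3 UMIs that a count of 0 would allow. The mesothelial-like cells of SI replicate 1 were the highest, at 4.50 CPM where 3 UMIs would give 1.35 CPM. FB-like and SMC-like cells together gave 7382 and 3888 of the 15382 *Pdgfra* UMIs of all kept cells, and mesothelial-like cells gave 22.

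After thinning, *Pdgfra* was detected in 17.4%, 25.4%, 22.2% and 23.4% of FB-like cells and in 17.8%, 25.7%, 23.2% and 26.8% of SMC-like cells. Neural-like cells, taken here as the background level, gave 0.472%, 0%, 0% and 0%. Before thinning, they had median UMIs per cell of 11107.5 to 19853 against 4061 to 9287 in FB-like cells. Mesothelial-like cells gave 0.891%, 0%, 1.93% and 0%. Without thinning the FB-like shares were 23.8%, 49.2%, 49.5% and 48.6%, with LI replicate 1, the shallowest library, lowest both with and without thinning, and the neural-like shares were 0.459% to 2.15%. In neural-like cells *Pdgfra* stood at 0.382% to 2.44% of its FB-like level, beside 0.567% to 1.94% for *Col1a1*, 1.73% to 4.16% for *Col3a1* and 1.12% to 15.9% for *Col1a2*, collagen genes of mesenchyme that free RNA in the droplets would carry over. In mesothelial-like cells *Pdgfra* stood at 1.24% to 5.35% of its FB-like level. Whether free RNA gave these few UMIs was not tested.

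*Pdgfrb*, at chr18:61045150-61085061 on the plus strand, encodes PDGFRβ, the receptor of pericytes and vascular smooth muscle. Its distribution was wider than that of *Pdgfra*, because mesothelial-like cells had it as well. In FB-like cells its level was 38.1, 34.5, 27.2 and 45.8 CPM, in SMC-like cells it was 30.2, 21.2, 10.4 and 13.5 CPM, and in mesothelial-like cells it was 14.3, 28.5, 21.1 and 17.2 CPM. FB-like cells were above mesothelial-like cells in all 4 libraries and mesothelial-like above SMC-like cells in 3 of 4, with overlapping ranges at both steps. Neural-like cells had 4, 2, 3 and 5 UMIs. After thinning, *Pdgfrb* was detected in 9.91%, 10.05%, 7.80% and 12.2% of FB-like cells, in 4.99%, 7.89%, 7.34% and 5.36% of mesothelial-like cells, and in 0.472%, 0%, 0% and 0% of neural-like cells. In mesothelial-like cells *Pdgfrb* stood at 37.5% to 82.7% of its FB-like level, a range that did not meet the 1.24% to 5.35% of *Pdgfra* in the same cells.

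The receptors were also spread unevenly among the mesenchymal clusters, which is given as a description with no test. Cluster 4, an FB-like cluster led by *Anxa2*, *Tac2* and *Wnt4*, had *Pdgfrb* at 94.6, 80.3, 65.1 and 90.1 CPM, which was 1.97 to 2.48 times the level of all FB-like cells of the same library. No other of clusters 0 to 5 reached 65.1 CPM apart from cluster 3 in SI replicate 2, at 69.7 CPM. In cluster 4 *Pdgfra* was low for an FB-like cluster, at 42.1, 53.5, 68.6 and 77.8 CPM, or 0.560 to 0.817 times the FB-like level. There were 0.445, 0.667, 1.06 and 0.864 *Pdgfra* UMIs per *Pdgfrb* UMI in cluster 4, whereas clusters 0, 1, 2, 3 and 5 had between 2.39 and 8.73. Cluster 3 had the largest mean *Pdgfra* level among clusters 0 to 8, at 92.9, 146, 150 and 167 CPM, and *Pdgfrb* there was 34.1, 38.2, 31.4 and 69.7 CPM. After thinning, 33.7% ± 6.69 of the cells of cluster 3 (mean ± SD, n = 4 libraries) had a *Pdgfra* UMI and 21.2% ± 3.18 of the cells of cluster 4 had a *Pdgfrb* UMI.

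**Figure D1:**
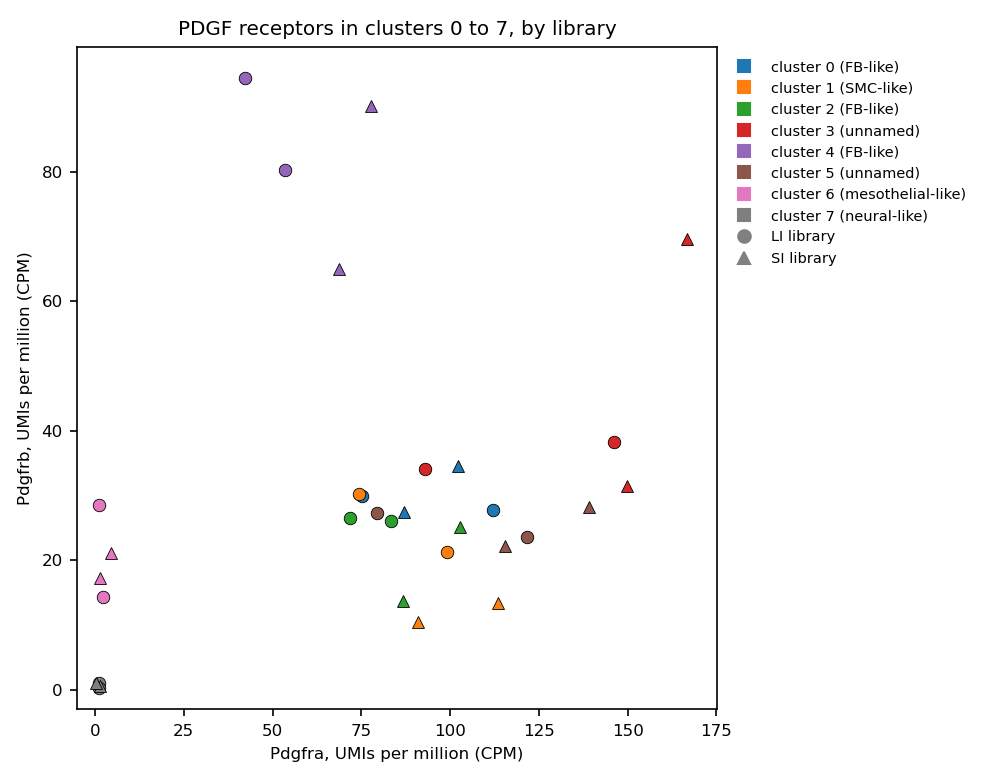
Level of *Pdgfra* (horizontal axis) and *Pdgfrb* (vertical axis), both in CPM, in clusters 0 to 7, with 1 point per cluster and library, circles for LI and triangles for SI. Cluster 4 lies at the top left with *Pdgfrb* at 65.1 to 94.6 CPM, cluster 3 at the right with *Pdgfra* at 92.9 to 167 CPM, the mesothelial-like cluster 6 on the left edge with *Pdgfrb* only, and the neural-like cluster 7 near the origin.

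*Pdgfa*, at chr5:138976014-138997370 on the minus strand, encodes the PDGF-A chain, which homodimerizes and binds PDGFRα. It was highest in mesothelial-like cells, the class with close to no *Pdgfra*. The mesothelial-like level was 187, 175, 192 and 153 CPM, the SMC-like level was 66.8, 113, 142 and 161 CPM, and the FB-like level was 49.3, 49.4, 63.7 and 48.9 CPM. Mesothelial-like cells were above SMC-like cells in 3 of 4 libraries with overlapping ranges, and SMC-like cells were above FB-like cells in all 4 with no overlap, as for 2.64% of all genes tested. Neural-like cells were lowest, at 9.29, 9.69, 15.4 and 18.4 CPM. After thinning, *Pdgfa* was detected in 41.7%, 35.5%, 41.7% and 38.7% of mesothelial-like cells and in 12.58%, 11.005%, 15.77% and 11.45% of FB-like cells. In SMC-like cells the shares were 15.9%, 26.8%, 33.7% and 36.2%, and neural-like cells gave 3.30% to 4.21%. Mesothelial-like cells were 5.97% of the kept cells and gave 11.2% of their *Pdgfa* UMIs.

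*Pdgfc*, at chr3:81036416-81214040 on the plus strand, encodes the PDGF-C chain, which is secreted latent, is activated by proteolysis and binds PDGFRα. Its order of classes was that of *Pdgfa*. The mesothelial-like level was 110, 85.2, 100.3 and 105 CPM, the SMC-like level was 30.9, 32.1, 72.0 and 52.7 CPM, and the FB-like level was 25.0, 17.9, 42.2 and 22.8 CPM. Mesothelial-like cells were above SMC-like cells in all 4 libraries with no overlap, as for 13.2% of all genes tested, and SMC-like cells were above FB-like cells in all 4 with overlapping ranges. Neural-like cells had 4.22 to 7.71 CPM. After thinning, *Pdgfc* was detected in 25.3%, 19.3%, 24.3% and 24.4% of mesothelial-like cells, in 9.79%, 8.18%, 18.03% and 13.7% of SMC-like cells and in 6.86%, 5.08%, 12.2% and 5.92% of FB-like cells.

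*Pdgfa* and *Pdgfc* moved together across the 16 sums of 4 classes and 4 libraries, with a Pearson r of 0.97 of log2(CPM + 1) as a description, since sums of 1 library share its depth and the classes set most of the spread. *Pdgfra* and *Pdgfrb* had an r of 0.66 over the same sums. Because these ligands moved together, the 250 bases before a RefSeq start of each are shown on build GRCm38.p6, 5′ to 3′ on the strand of the gene, with GC boxes (GGGCGG, or CCGCCC where it lies on the other strand) in capitals. The *Pdgfa* window is chr5:138994945-138995194 on the minus strand and belongs to the more upstream of 2 annotated starts, and the *Pdgfc* window is chr3:81036166-81036415 on the plus strand.
Pdgfa: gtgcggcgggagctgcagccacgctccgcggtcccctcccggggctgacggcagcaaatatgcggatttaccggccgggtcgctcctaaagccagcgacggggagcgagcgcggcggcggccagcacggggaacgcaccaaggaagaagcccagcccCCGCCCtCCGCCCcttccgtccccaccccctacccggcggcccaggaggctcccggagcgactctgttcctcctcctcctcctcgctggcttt
Pdgfc: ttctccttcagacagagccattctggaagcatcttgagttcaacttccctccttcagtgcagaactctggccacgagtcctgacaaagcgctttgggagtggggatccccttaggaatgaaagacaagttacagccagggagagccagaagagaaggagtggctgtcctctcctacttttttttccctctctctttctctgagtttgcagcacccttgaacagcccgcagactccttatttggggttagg
The *Pdgfa* window held 2 GC boxes, which do not overlap each other, and its GC content was 72.4%, whereas the *Pdgfc* window held none and its GC content was 50.8%. The window of the other *Pdgfa* start, not shown, held 1 GC box at a GC content of 66.4%. Of all 32851 RefSeq windows of this length, 32.7% held a GC box on either strand and the median GC content was 52.4%. The letters TATAAA were in neither window and in 12.4% of all windows. A match is a description of the letters and not of a bound site.

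*Pdgfb*, at chr15:79995874-80014977 on the minus strand, encodes the PDGF-B chain, the ligand of both receptors. Endothelial cells, a known source of it, were outside the gate. It was rare, with 204 UMIs in all kept cells, and 154 of these, or 75.5%, lay in neural-like cells, which were 5.64% of the cells. Neural-like cells had 2, 30, 38 and 84 UMIs (0.845, 5.38, 8.25 and 15.4 CPM), so LI replicate 1 was below the level of 3 UMIs and SI replicate 2 was highest. All 154 UMIs were in cluster 7, led by the neural crest and glial genes *Foxd3* and *Sox10*. Cluster 8, led by the neuronal genes *Cartpt*, *Stmn2* and *Rtn1*, had 0 UMIs in its 290 cells, and the level that 3 UMIs would give there was 2.23 to 8.06 CPM. After thinning, *Pdgfb* was detected in 0%, 1.95%, 2.89% and 5.66% of cluster 7 cells. Mesothelial-like cells had 3, 8, 2 and 4 UMIs, FB-like cells 10, 3, 5 and 5, and SMC-like cells 2, 2, 0 and 0. Summed endothelial markers were at 26.2 to 45.6 CPM in the neural-like cells of LI and at 21.3 to 26.0 CPM in those of SI, with UMIs from 6 of the 9 genes and *Tie1*, *Tek* and *Emcn* at 0, and their part in the *Pdgfb* level was not tested.

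*Pdgfd*, at chr9:6168584-6378850 on the plus strand, encodes the PDGF-D chain, which is also secreted latent and binds PDGFRβ. It had 311 UMIs in all kept cells and was at a like low level in every class. FB-like cells were at 1.99, 2.87, 1.07 and 1.49 CPM, SMC-like cells at 2.17, 1.75, 1.68 and 1.13 CPM and neural-like cells at 1.27, 2.33, 1.09 and 1.65 CPM. Mesothelial-like cells had 11, 9, 2 and 0 UMIs, and the 0 of SI replicate 2 allows up to 1.91 CPM. The order of the 4 classes changed from library to library, and all neighbouring ranges overlapped.

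**Figure D2:**
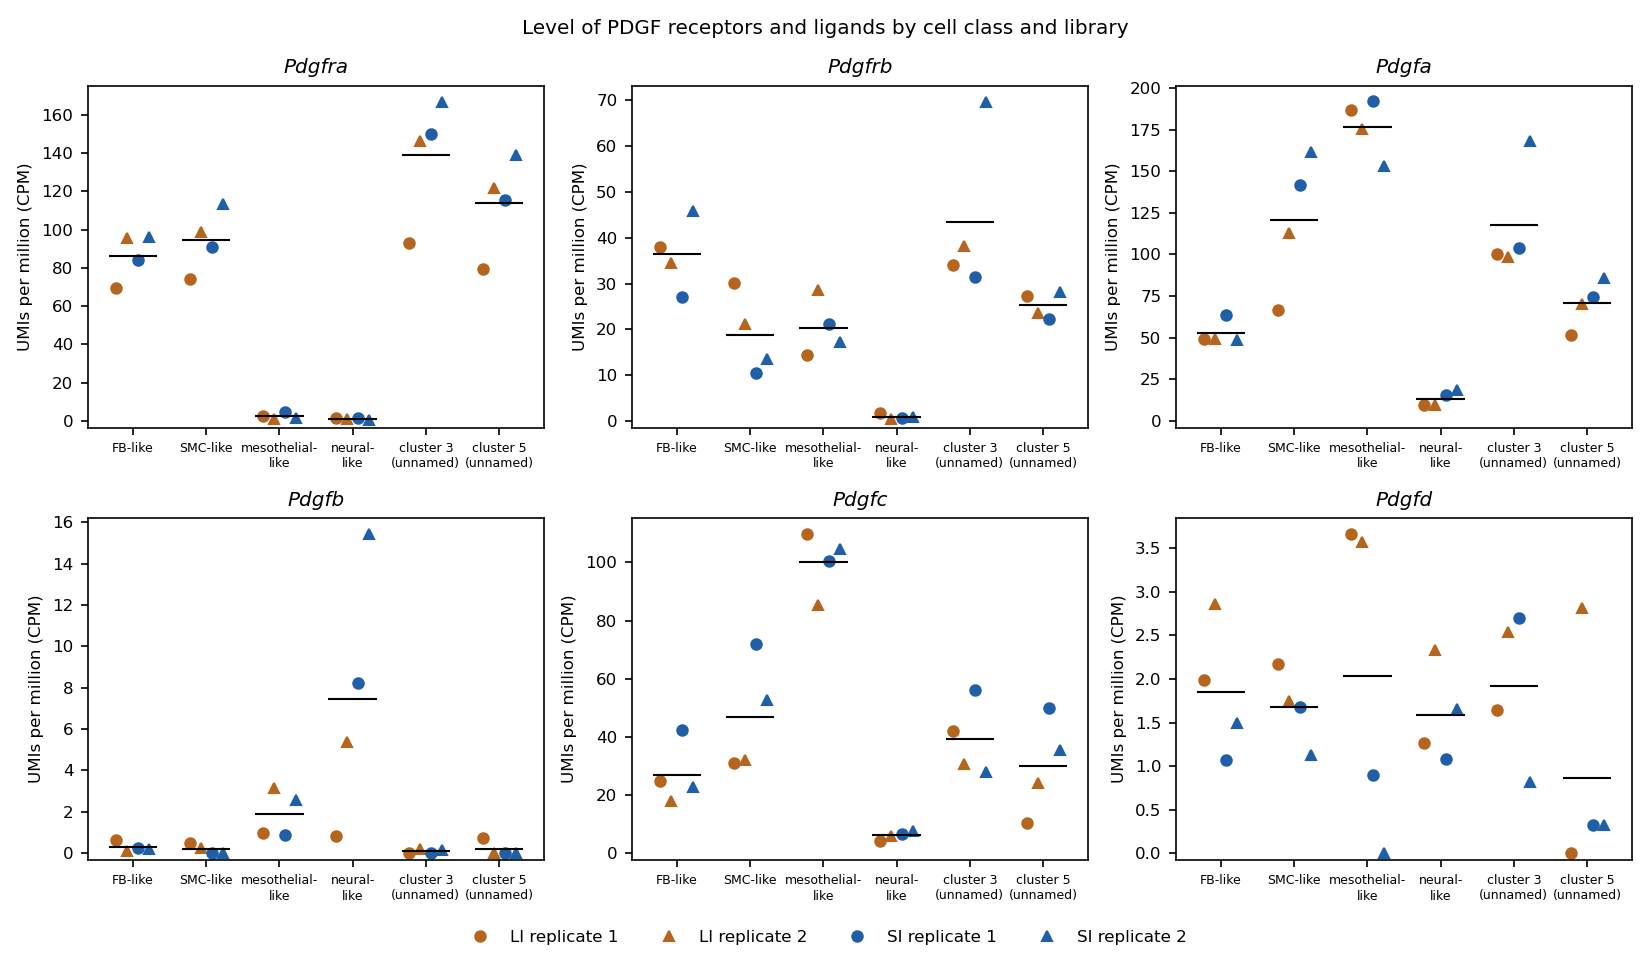
Level of each of the 6 genes in CPM (vertical axis, linear and with its own scale for each gene) in the 4 named classes and in unnamed clusters 3 and 5, with 1 point per library, the region by colour and the replicate by shape, and a bar at the mean of the 4 libraries. *Pdgfra* was at 1.19 to 4.50 CPM in mesothelial-like cells, where *Pdgfa* reached 153 to 192 CPM, and *Pdgfb* was highest in neural-like cells in 3 of 4 libraries.

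The classes were compared with edgeR's quasi-likelihood test on the summed counts, with the library as a block and p-values adjusted by the Benjamini-Hochberg method over the 12497 genes tested. Each comparison uses the same FB-like sums, so the 3 are not independent of each other. Between SMC-like and FB-like cells, 3 of the 6 genes passed an adjusted p of 0.05, against 11.7% of all genes tested. *Pdgfa* and *Pdgfc* were higher in SMC-like cells, which 5.01% of all genes were, and *Pdgfrb* was lower, which 6.67% of all genes were. The log2 fold change ± SE was 1.21 ± 0.18 for *Pdgfa* (2.32-fold, adjusted p = 0.000496), 0.85 ± 0.18 for *Pdgfc* (adjusted p = 0.00613) and -1.03 ± 0.22 for *Pdgfrb* (adjusted p = 0.00787). The *Pdgfrb* call was lost without SI replicate 1 (adjusted p = 0.0809) and without SI replicate 2 (adjusted p = 0.0873), and the *Pdgfc* call without LI replicate 2 (adjusted p = 0.0524) and without SI replicate 2 (adjusted p = 0.0783). *Pdgfra* did not pass, at 0.16 ± 0.12 (adjusted p = 0.476), and an interval of 2 SE on either side ran from -0.09 to 0.41. *Pdgfb* (adjusted p = 0.538) and *Pdgfd* (adjusted p = 0.952) did not pass either, with intervals from -3.79 to 1.03 and from -0.71 to 0.59.

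Between mesothelial-like and FB-like cells, 5 of the 6 genes passed, against 38.6% of all genes tested. *Pdgfa*, *Pdgfb* and *Pdgfc* were higher in mesothelial-like cells, as 19.7% of all genes were, and *Pdgfra* and *Pdgfrb* were lower, as 18.9% were. *Pdgfra* had the largest change, at -5.12 ± 0.24 (34.7-fold lower, adjusted p = 1.95e-09), and it was lower in 4 of 4 libraries. *Pdgfc* was higher by 1.99 ± 0.19 (3.98-fold, adjusted p = 1.55e-06) and *Pdgfa* by 1.80 ± 0.19 (3.49-fold, adjusted p = 3.64e-06). *Pdgfrb* was lower by a smaller amount, -0.81 ± 0.26 (1.76-fold lower, adjusted p = 0.0240), and its call was lost without SI replicate 2 (adjusted p = 0.0945). *Pdgfb* was higher by 2.74 ± 0.93 (adjusted p = 0.0308), which rested on 17 mesothelial-like and 23 FB-like UMIs and was lost without LI replicate 2 (adjusted p = 0.241), SI replicate 1 (adjusted p = 0.0779) or SI replicate 2 (adjusted p = 0.0833). The value was 3.52 without LI replicate 1 and 2.01 without LI replicate 2. *Pdgfd* did not pass, at 0.27 ± 0.42 (adjusted p = 0.652).

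Between neural-like and FB-like cells, 5 of the 6 genes passed as well, against 59.8% of all genes tested, so that a call says little by itself here. *Pdgfb* was higher in neural-like cells, as 29.6% of all genes were, and the other 4 were lower, as 30.2% were. *Pdgfb* was higher by 4.68 ± 0.64 (adjusted p = 1.84e-05), and it was above the FB-like level in LI replicate 2 and both SI libraries. In LI replicate 1 the 2 neural-like UMIs, at 0.845 CPM beside 0.642 CPM in FB-like cells, were under the level of 3 UMIs. The log2 fold change was at 5.54 without LI replicate 1 and at 4.09 without SI replicate 2. *Pdgfra* was lower by the largest amount, -6.41 ± 0.25 (adjusted p = 2.89e-11), followed by *Pdgfrb* at -5.46 ± 0.42 (adjusted p = 4.43e-08). *Pdgfc* was at -2.01 ± 0.25 (adjusted p = 7.59e-06) and *Pdgfa* at -1.96 ± 0.23 (adjusted p = 3.66e-06), and *Pdgfd* did not pass at -0.07 ± 0.38 (adjusted p = 0.891). The receptor differences depended in size on doublet removal. Where doublets were kept, *Pdgfra* was at -4.68 in neural-like and -3.98 in mesothelial-like cells, and *Pdgfrb* was at -4.29 in neural-like cells.

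**Figure D3:**
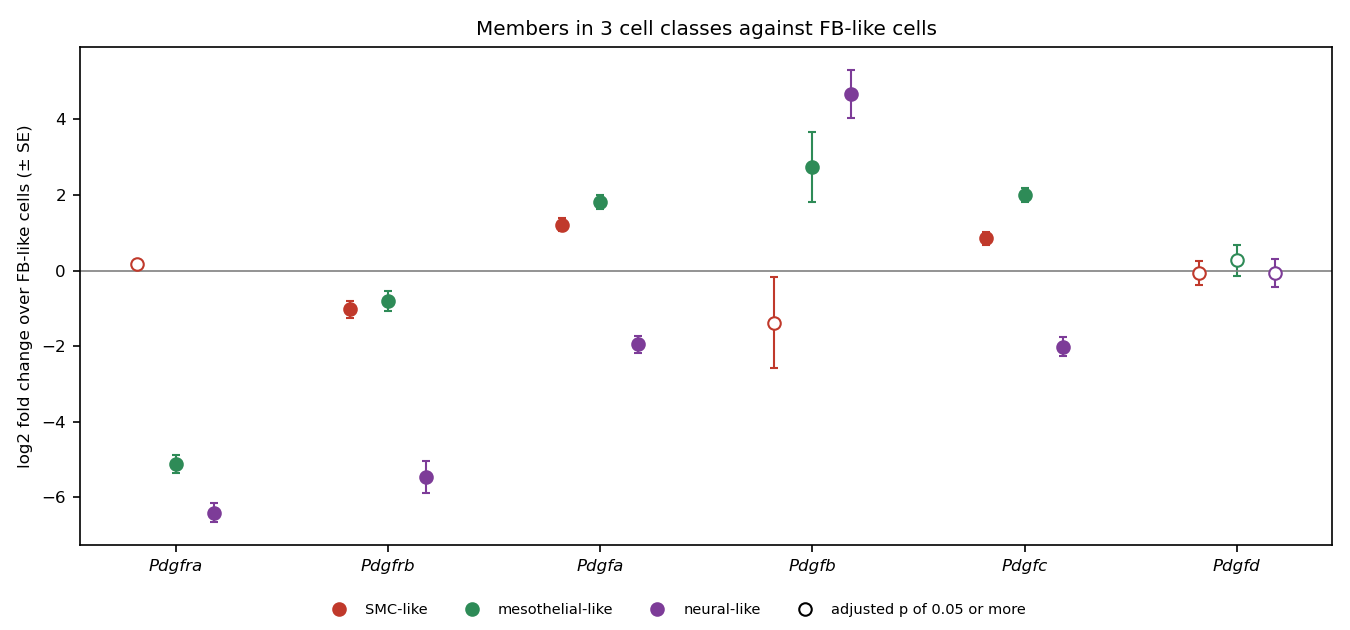
Log2 fold change of the 6 genes in SMC-like, mesothelial-like and neural-like cells over FB-like cells (vertical axis, with bars of 1 SE), with filled points where the adjusted p was under 0.05. *Pdgfra* and *Pdgfrb* lie below 0 in the mesothelial-like and neural-like comparisons, and *Pdgfa* and *Pdgfc* lie above 0 in SMC-like and mesothelial-like cells and below 0 in neural-like cells.

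SI was then compared with LI within each class, over 2 libraries against 2. In SMC-like cells 1 of the 5 genes tested passed, against 1.73% of all 12246 genes tested, and DESeq2 called 2, *Pdgfc* (adjusted p = 0.00275) and *Pdgfa* (adjusted p = 0.0437). *Pdgfc* was higher in SI by 1.12 ± 0.22 (2.17-fold, adjusted p = 0.0410), and both SI libraries, at 72.0 and 52.7 CPM, were above both LI libraries, at 30.9 and 32.1 CPM. This call was lost without SI replicate 1 (adjusted p = 0.197), where doublets were kept (adjusted p = 0.0534) and with sums thinned to equal totals (adjusted p = 0.111). The CPM levels of 4 of the 5 genes, all but *Pdgfra*, did not overlap between the regions in SMC-like cells, against 46.2% of all genes tested, so this order says little by itself. *Pdgfa* and *Pdgfrb* did not pass in edgeR's test. *Pdgfa* was at 0.89 ± 0.24 and *Pdgfrb* at -0.95 ± 0.26, both with an adjusted p of 0.151, and both passed without LI replicate 2 (adjusted p = 0.000370 and 0.00577). *Pdgfa* also passed without SI replicate 1 (adjusted p = 0.0495). *Pdgfra* was at 0.37 ± 0.21 (adjusted p = 0.548) and *Pdgfd* at -0.34 ± 0.46 (adjusted p = 0.849), and *Pdgfb* had too few UMIs to be tested.

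The smooth muscle markers of the SMC-like cells, 11 of 12 of which exceeded 3 CPM in every library, summed to 2020 and 6587 CPM in LI and to 5597 and 11662 CPM in SI. The regions overlapped in this sum, which was not tested. Some marker lists of other cell types overlapped between the regions in SMC-like cells. FB markers, 10 of 10 with UMIs, were at 1093 to 1835 CPM in LI and 1285 to 1694 CPM in SI. Pericyte markers, 7 of 8 with UMIs and *Higd1b* at 0, were at 36.7 to 61.7 and 44.2 to 89.8 CPM. Erythroid markers, 9 of 9 with UMIs, were at 3.49 to 6.76 and 2.91 to 6.01 CPM. The lists that follow, among others, did not overlap. Summed mesothelial markers, 11 of 12 with UMIs and *Msln* at 0, were at 38.7 to 127 CPM in LI and 10.8 to 23.1 CPM in SI, and epithelial markers, 6 of 9 with UMIs and *Cdh1*, *Cldn4* and *Cldn6* at 0, at 46.8 to 57.2 and 23.4 to 35.6 CPM. Neural markers, 15 of 15 with UMIs, were at 28.5 to 79.4 CPM in LI and 85.6 to 152 CPM in SI. Those of interstitial cells of Cajal, 4 of 4 with UMIs, were at 343 to 386 and 278 to 306 CPM, and endothelial markers, 8 of 9 with UMIs and *Tie1* at 0, at 17.2 to 22.0 and 14.8 to 15.9 CPM. The part of these lists in the *Pdgfc*, *Pdgfa* and *Pdgfrb* differences was not tested. A 3′ or a 5′ kit was used, and which library had which is not stated in the labels, so a kit difference between regions cannot be told apart from region.

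In FB-like cells 0 of the 5 genes tested passed with edgeR, against 2.84% of all 13761 genes tested, and 0 with DESeq2, while 1 (*Pdgfc*) had an unadjusted p under 0.05. *Pdgfc* was at 0.75 ± 0.33 (adjusted p = 0.317), and SI replicate 1, at 42.2 CPM, was above the other 3 libraries, which lay between 17.9 and 25.0 CPM. It passed without LI replicate 1 (adjusted p = 0.000994) and without SI replicate 2 (adjusted p = 0.0402). *Pdgfra* was at 0.28 ± 0.19 (adjusted p = 0.539), and intervals of 2 SE ran from -0.11 to 0.66 for *Pdgfra*, from -0.36 to 0.65 for *Pdgfrb* and from -0.06 to 0.74 for *Pdgfa*. *Pdgfd* had no overlap between regions, as 50.6% of all genes tested, with 1.07 and 1.49 CPM in SI against 1.99 and 2.87 CPM in LI and a log2 fold change of -0.78 ± 0.36 that did not pass (adjusted p = 0.349).

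In mesothelial-like cells 0 of the 3 genes tested passed with edgeR, against 1.08% of all genes tested, 0 with DESeq2 and 0 at an unadjusted p under 0.05. The log2 fold change was -0.01 ± 0.20 for *Pdgfa*, 0.12 ± 0.22 for *Pdgfc* and -0.07 ± 0.35 for *Pdgfrb*, with adjusted p from 0.913 to 0.991. The intervals of 2 SE were -0.42 to 0.39, -0.31 to 0.55 and -0.77 to 0.63. In neural-like cells 0 of the 3 genes tested passed with edgeR, against 0.310% of all genes tested, and 0 with DESeq2, while 2 (*Pdgfa* and *Pdgfb*) had an unadjusted p under 0.05. *Pdgfb* was at 1.61 ± 0.53 (adjusted p = 0.349), and it passed without LI replicate 2, at 3.66 (adjusted p = 6.53e-06), and without SI replicate 1, at 2.01 (adjusted p = 0.0166). It was at 1.13 without LI replicate 1 and at 1.17 without SI replicate 2, and did not pass in either. *Pdgfa* was at 0.77 ± 0.26 (adjusted p = 0.405), and *Pdgfc* at 0.38 ± 0.34 (adjusted p = 0.847). In all 3 genes both SI libraries were above both LI libraries, and 38.9% of all genes tested did not overlap either way. In neural-like cells the summed neural markers, 15 of 15 with UMIs, were at 4062 to 4914 CPM in LI and 5537 to 5632 CPM in SI. Epithelial markers, 5 of 9 with UMIs and *Cdh1*, *Cldn4*, *Cldn6* and *Shh* at 0, were at 9.71 to 23.0 and 54.1 to 65.7 CPM, and FB markers, 10 of 10 with UMIs, at 355 to 398 and 238 to 269 CPM. Smooth muscle markers, 12 of 12 with UMIs, were at 65.3 to 90.0 and 91.6 to 108 CPM. Markers of interstitial cells of Cajal, 4 of 4 with UMIs, were at 249 to 264 and 214 to 217 CPM. Immune markers, 5 of 7 with UMIs and *Ptprc* and *Cd52* at 0, were at 5.56 to 10.1 and 2.02 to 5.21 CPM. The part of these lists in the *Pdgfb* and *Pdgfa* differences was not tested.

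An interaction term tested whether the SI to LI difference varied among the 4 classes. With edgeR 0 of the 6 genes passed, against 10.2% of all 13141 genes tested, and 0 with DESeq2, while 4 had an unadjusted p under 0.05. These were *Pdgfa* (adjusted p = 0.0956), *Pdgfrb* (adjusted p = 0.104), *Pdgfc* (adjusted p = 0.112) and *Pdgfb* (adjusted p = 0.145). The test without LI replicate 2 passed 3 of the 6 genes, namely *Pdgfa*, *Pdgfrb* and *Pdgfb*. Without SI replicate 1 only *Pdgfa* passed (adjusted p = 0.0498), without SI replicate 2 only *Pdgfc* (adjusted p = 0.0415), and without LI replicate 1 none.

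**Figure D4:**
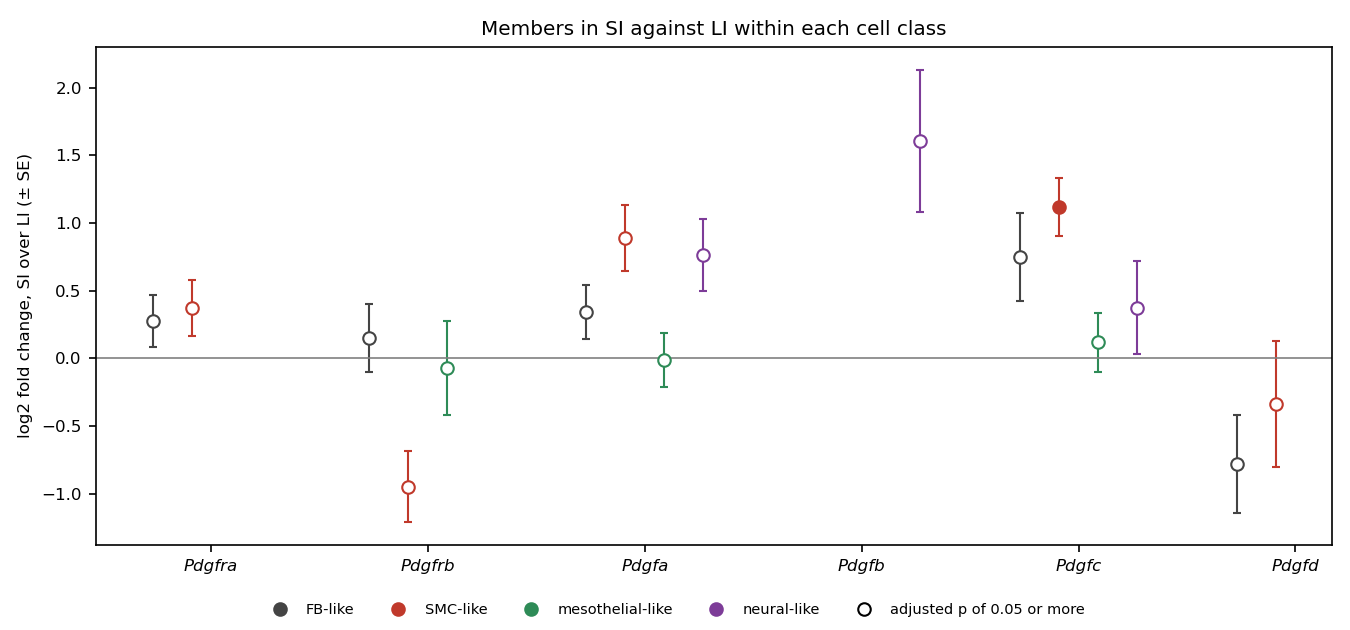
Log2 fold change of the 6 genes in SI over LI within each class (vertical axis, with bars of 1 SE), with open points where the adjusted p was 0.05 or more and no point where a gene had too few UMIs to be tested. The filled point is *Pdgfc* in SMC-like cells at 1.12, and the mesothelial-like points lie between -0.07 and 0.12.

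The share of single cells with both receptors was then set against the share expected if the receptors fell on cells independently of each other within a class and library. After thinning, 2.13%, 1.96%, 1.60% and 2.71% of FB-like cells had UMIs of both *Pdgfra* and *Pdgfrb*, against 1.73%, 2.55%, 1.73% and 2.85% expected. The ratio of observed to expected was 0.969 ± 0.193 (mean ± SD, n = 4 libraries), with LI replicate 1 above 1 and the other 3 libraries below it. With cells thinned to 2000 UMIs the ratios were 1.05, 0.966, 1.005 and 1.03, and with cells not thinned 1.21, 0.993, 0.989 and 1.04. The side of 1 on which an SI library lay therefore changed with the thinning. In SMC-like cells 1.36%, 2.11%, 0.455% and 1.504% had both, and the ratio was 1.14 ± 0.314, with 2 libraries on either side of 1. The test was made on the share of cells with *Pdgfrb* among those with *Pdgfra* minus the share among those without it. This difference was -0.473 ± 2.44 percentage points in FB-like cells (exact two-sided sign-flip permutation p = 0.625) and 0.919 ± 1.54 in SMC-like cells (exact permutation p = 0.5), so neither departed from 0 beyond the spread between libraries. With 4 libraries this test cannot go below 0.125, and the smallest adjusted p over the 40 comparisons of pairs and cell groups was 0.833.

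In mesothelial-like cells 1 cell, in LI replicate 1, had both receptors, and *Pdgfrb* alone was detected in 6.35% ± 1.495 of the cells. No thinned neural-like cell had both. Cluster 3 had the largest mean share with both, at 2.70%, 4.04%, 3.80% and 7.59%, although cluster 4 was above it in LI replicate 1 at 4.01%, and the ratio in cluster 3 was above 1 in 4 of 4 libraries at 1.07 to 1.16 (exact permutation p = 0.125). In cluster 4, where *Pdgfrb* was highest, 3.28% ± 0.577 of cells had both, and the ratio was 0.969 ± 0.291. Over all kept cells 1.95% ± 0.488 had both, and the ratio was 1.14 ± 0.129, above 1 in 4 of 4 libraries, which mixes classes with and without receptors. These shares moved with depth, as 9.93% of FB-like cells had both without thinning, so they are shares of detection and not of expression.

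The ligand genes were set against the receptor in the same way. *Pdgfra* with *Pdgfa* had a ratio of 0.978 ± 0.0970 in FB-like cells, above 1 in 1 of 4 libraries, and of 0.970 ± 0.0725 in SMC-like cells, above 1 in 2 of 4. *Pdgfra* with *Pdgfc* had 1.05 ± 0.206 in FB-like cells, above 1 in 3 of 4, and 0.848 ± 0.150 in SMC-like cells, above 1 in 1 of 4 (exact permutation p = 0.25 for the difference of shares). *Pdgfa* with *Pdgfc* was above the expected share in 4 of 4 libraries in FB-like cells (ratio 1.25) and SMC-like cells (ratio 1.14), each with an exact permutation p of 0.125. In mesothelial-like cells 9.91% ± 1.55 of cells had both ligands, with a ratio of 1.10 that was above 1 in 2 of 4 libraries.

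**Figure D5:**
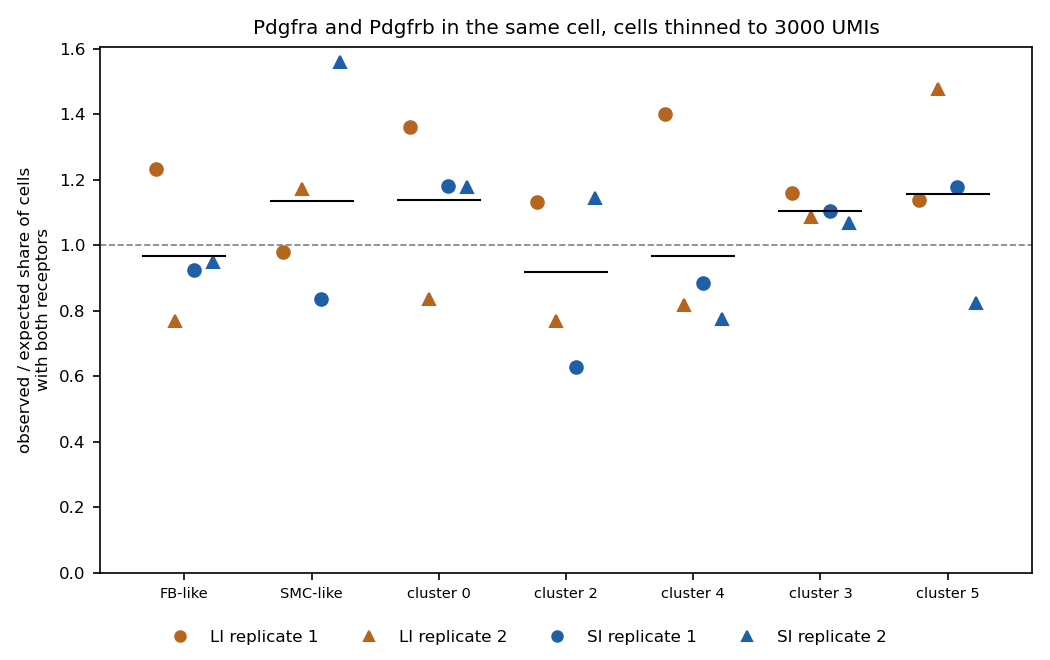
Ratio of the observed to the expected share of cells with both *Pdgfra* and *Pdgfrb* (vertical axis), in cells thinned to 3000 UMIs, by class and by mesenchymal cluster, with 1 point per library, a bar at the mean and a dashed line at 1. The libraries lie on both sides of 1 in all groups shown but cluster 3, which lies between 1.07 and 1.16.

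The genes most like each member over the 16 sums are named as a description. *Pdgfra* was most like *Gucy1b3* (r = 0.96), *Gpr20* and *Itga8*, and *Pdgfrb* was most like *Eva1b* (r = 0.98), *Tnfaip8* and *Lpar1*. *Pdgfa* was most like *Serinc5* (r = 0.96), *Cobl* and *Pgf*, and *Pdgfc* was most like *Serinc5* (r = 0.98), *Pgf* and *Plp2*. *Pdgfb* was most like *Ank2* (r = 0.95), *Gse1* and *Wwtr1*, whereas *Pdgfd* had no gene above *Vps4b* (r = 0.87), *Atm* and *Il17rd*. These sums share libraries and depth, and no test was made.

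Of the genes that process or bind PDGFs, 10 of 11 were tested between classes. In mesothelial-like against FB-like cells 5 were higher and 1 lower, against 38.6% of all genes called either way, with a median log2 fold change of 0.59 against -0.03 over all genes. *Sparc*, a matrix protein that binds PDGFs, was higher by 1.83 ± 0.20 (adjusted p = 5.93e-06), *Thbs1*, thrombospondin, by 1.06 ± 0.15 (adjusted p = 6.67e-05), and *A2m*, a protease inhibitor that carries growth factors, by 2.66 ± 0.52 (adjusted p = 0.00111). In SMC-like cells 3 were lower and 0 higher, against 11.7% of all genes called. These 3 were *Plat*, which encodes the tissue plasminogen activator that cleaves PDGF-C, at -1.09 ± 0.14 (adjusted p = 0.000213), *Nrp1*, a co-receptor, at -1.52 ± 0.32 (adjusted p = 0.00607), and *A2m* at -3.32 ± 0.95 (adjusted p = 0.0355). In neural-like cells 1 was higher and 5 lower, against 59.8% of all genes called, and those of smallest adjusted p were *Thbs1* at -4.80, *Plat* at -3.02 and *Lrp1*, a receptor of many ligands, at -2.58. Between regions, 1 of the 10 genes tested passed in FB-like cells, against 2.84% of all genes tested. It was *Nrp1*, higher in SI by 1.09 ± 0.23 (adjusted p = 0.0484). In SMC-like cells 1 of 8 passed, against 1.73% of all genes, and it was *Pcsk5*, a proprotein convertase, at -2.14 ± 0.34 (adjusted p = 0.0183). None passed in mesothelial-like or neural-like cells. The alternatives were not run on the genes of the lists, so how far these calls depend on the settings was not tested.

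Of the 24 genes of receptor signalling, 2 were higher and 5 lower in mesothelial-like than in FB-like cells, a smaller share than the 38.6% of all genes called, with a median log2 fold change of -0.02 against -0.03 over all genes. The Src-family kinase gene *Fyn* was at -0.99 ± 0.14, *Pik3cb*, a catalytic subunit of PI3-kinase, at 1.33 ± 0.20, and *Ptprj*, a receptor tyrosine phosphatase, at 0.89 ± 0.18. In neural-like cells 9 were higher and 5 lower, a share near the 59.8% of all genes called, and those of smallest adjusted p were *Fyn* at 2.02 ± 0.10, *Ptpn1*, a tyrosine phosphatase, at 0.93 ± 0.09 and the adaptor gene *Grb2* at 0.47 ± 0.05. In SMC-like cells 1 was lower and 0 higher, against 11.7% of all genes called, and it was *Cblb*, a ubiquitin ligase, at -0.47 ± 0.12 (adjusted p = 0.0193). Between regions 0 of the 24 passed in any class with edgeR, and 1 to 3 per class had an unadjusted p under 0.05.

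Of the related receptors and VEGF ligands, 7 were tested between classes, and 2 were higher and 2 lower in mesothelial-like cells and 1 higher and 0 lower in SMC-like cells, against 38.6% and 11.7% of all genes called. *Pgf*, which encodes placental growth factor, was higher by 2.42 ± 0.14 in mesothelial-like and by 0.74 ± 0.13 in SMC-like cells (adjusted p = 0.00205) and lower in neural-like cells at -3.40 ± 0.24. *Flt4*, a VEGF receptor gene, was higher in mesothelial-like cells by 4.72 ± 0.48, and *Kit*, the receptor gene of interstitial cells of Cajal, was lower there at -1.58 ± 0.26. In neural-like cells 1 of the 7 was higher and 5 were lower, against 59.8% of all genes, with *Kdr*, another VEGF receptor gene, at 4.31 ± 0.32 and *Kit* at -4.39 ± 0.32. Between regions 0 of them passed in any class with edgeR, and 0 to 3 per class had an unadjusted p under 0.05. The surface proteins that the study gated beside PDGFRα form a list of 4 genes, of which 3 were tested, and as the study chose them on cells of this kind they are not independent evidence. *Dpp4* and *Pdpn* were higher in mesothelial-like cells, at 5.75 ± 0.22 and 2.73 ± 0.26, while *Pdgfra* was lower. In neural-like cells *Pdpn* was higher at 2.45 ± 0.25 and *Dpp4* lower at -4.52 ± 0.75. *Dpp4* was lower in SMC-like cells at -1.69 ± 0.36 (adjusted p = 0.00724), and in mesothelial-like cells it was higher in SI than in LI by 1.58 ± 0.32 (adjusted p = 0.0433). It was the only 1 of the 3 gated genes tested there to pass, against 1.08% of all genes tested, and the alternatives were not run on it.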

How the data were processed

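Droplet single-cell RNA sequencing was carried out by the authors on MSC of 2 LI and 2 SI libraries, grouped and numbered by the sample titles. Other labels of these samples speak of adult or colonic tissue, and the stage and region follow the titles. Per the labels and the file headers, the authors aligned reads to build mm10 and made the deposited raw UMI counts per gene and barcode with Cell Ranger 3.1.0, without normalization. Seurat 3, also named by the submitters, was used in the study on later steps that the deposited files do not hold. The annotation used for positions (GENCODE) held 28416 of the 28692 listed gene IDs. Whether reads were counted by strand is not given in the sources used here, and *Pdgfra*, *Pdgfa* and *Pdgfc* overlap antisense genes whose reads could then be shared.

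Cells with at least 1000 genes and at most 10% mitochondrial UMIs were kept. Scrublet (scanpy 1.11.5) made 1 to 6 automatic calls per library and had thus not worked, so the top-scoring cells were removed at 0.8% per 1000 cells (183 to 348 per library). Cells were integrated and clustered with Seurat 5.3.0 (R 4.3.3) on 1983 variable genes, the members and pathway genes among the 2000 having been left out (30 components, resolution 0.3). A cluster was named from a marker list where at least 3 of its 10 leading genes were markers of that list and none of another, and FB-like where none was a marker and at least 3 FB markers were detected in 10% of its cells. Counts were summed per class and library and tested with edgeR 4.0.16 (TMM scaling, quasi-likelihood F test, expression filter, library block between classes). Dividing the size of a log2 fold change by the square root of its F gave its SE. Scripts were tested on simulated data. Cells were thinned to 3000 UMIs for shares and co-detection, and co-detection was tested by exact sign-flip permutation over libraries of the share of cells with the second gene among cells with the first minus that among cells without it. Limits set by 3 UMIs cover counting error only, whereas intervals of 2 SE hold the spread between libraries as the fit estimated it.

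The members and gene lists were chosen with earlier results of these data known. Named were all 6 members in every comparison, at most the 3 passing genes of smallest adjusted p per list and comparison, and the 3 most alike genes per member by Pearson r, among genes at 30 CPM or more in at least 1 of the 16 sums. DESeq2 1.42.0, its size factors in edgeR, no filter, doublets kept, thinned sums, a replicate block, no library block, unnamed clusters 3 and 5 added to FB-like cells and each library left out were the alternatives.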

Additional observations from a re-analysis of the deposited data

Results flagged for a closer look

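For 7 genes of the PDGF pathway lists the difference between SI and LI varied among the 4 classes in edgeR's interaction test, which called 10.2% of all genes tested. They were 3 of the 10 genes tested that process or bind PDGFs, 2 of 24 of receptor signalling, 1 of 7 related receptors and VEGF ligands and 1 of 4 gated surface proteins. These genes are no members, and their effects are given as log2 fold changes of SI over LI. *Nrp1* (adjusted p = 0.000206) was higher in SI in FB-like cells at 1.09 and in SMC-like cells at 0.67, against -1.07 in mesothelial-like and -0.50 in neural-like cells. *Pik3r1* (adjusted p = 0.000636) was at 0.48 in neural-like cells and at -0.83 in mesothelial-like cells. *Sparc* (adjusted p = 0.00143) was at -0.80 in neural-like cells and between 0.12 and 0.42 in the other 3 classes. *Stat3* (adjusted p = 0.00994) was at 0.72 in neural-like and -0.38 in mesothelial-like cells. *Kit* (adjusted p = 0.0227) was at -1.34 in SMC-like and -1.22 in mesothelial-like cells, against -0.39 in FB-like cells. *Thbs1* (adjusted p = 0.0255) was at -0.44 in SMC-like and 0.12 in FB-like cells, and *Dpp4* (adjusted p = 0.0354) was at 1.58 in mesothelial-like and 0.53 in FB-like cells.

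The unnamed cluster 9, which no comparison used, held *Pdgfra* and *Pdgfa* above the level that 3 UMIs would give. In LI replicate 2, the source of 160 of its 181 cells, *Pdgfra* was at 69.6 CPM and *Pdgfa* at 69.6 CPM, from 37 UMIs each, where 3 UMIs would give 5.65 CPM. The cluster was led by *Pf4*, a platelet and macrophage gene, *Afp*, a fetal liver gene, and haemoglobin genes, and its cells had a median of 3278 UMIs.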

How the results depend on the processing

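With 2 libraries per region, the spread rests on few samples, and counts of passing genes moved with most settings. Of 356 values of the members' fold changes under the alternatives, 310 kept their direction and their side of the threshold, 16 gained a call, 16 lost one and 14 turned direction, and the cause of these changes was not tested. Of the class differences, *Pdgfa* in SMC-like cells, *Pdgfra*, *Pdgfa* and *Pdgfc* in mesothelial-like cells and the 5 called genes in neural-like cells kept their calls under all alternatives that tested them, *Pdgfb* having had too few UMIs to be tested with thinned sums. Depth limits *Pdgfb* and *Pdgfd*, with 204 and 311 UMIs in all.

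Of members called, the 0 in FB-like cells became 1 with no low-count filter and 1 with the replicate block, and ranged from 0 to 1 as each library was left out. The 1 in SMC-like cells became 2 with DESeq2, 3 with no filter, 0 with doublets kept, 0 with thinned sums and 3 with the replicate block, and ranged from 1 to 3. The 0 in neural-like cells became 1 with no filter and 1 with the replicate block, and ranged from 0 to 1. The 3 of SMC-like against FB-like cells became 1 with no library block and ranged from 1 to 3, and the 5 of mesothelial-like against FB-like cells ranged from 3 to 5. The 0 of the interaction became 4 with no filter and 2 with thinned sums, and ranged from 0 to 3.

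With the replicate block, *Pdgfc* (adjusted p = 4.19e-07), *Pdgfa* (1.57e-06) and *Pdgfrb* (0.000548) passed between regions in SMC-like cells, *Pdgfc* in FB-like cells (0.0433) and *Pdgfb* in neural-like cells (0.0112). Same-numbered libraries of the 2 regions deviated together from their class means, with correlations of 0.23 to 0.39 over genes, but the labels do not tie a number to an experiment, so the numbers were not taken as pairs. *Pdgfrb* in mesothelial-like against FB-like cells did not pass with DESeq2 (0.0619) or with no library block (0.0537), and *Pdgfrb* and *Pdgfc* in SMC-like against FB-like cells did not pass with no library block (0.0690 and 0.156), nor *Pdgfc* with thinned sums (0.0632).

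The genes called between regions became 1353 with no filter and 938 with the replicate block in FB-like cells (452 to 1855 with a library left out), 864 and 1383 in SMC-like cells (275 to 1275), and 430 and 756 in mesothelial-like cells (110 to 759). In neural-like cells they became 96 with DESeq2, 362 with no filter, 62 with doublets kept and 408 with the replicate block (0 to 1473). Those between classes became 595 with thinned sums and 415 with no library block for SMC-like cells (654 to 1517), 2997 and 2806 for mesothelial-like cells, and 4823 with thinned sums for neural-like cells. Those of the interaction became 2377 with no filter and 747 with thinned sums (347 to 986).

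The differences that turned direction were small. *Pdgfrb* between regions ranged from -0.25 to 0.46 in FB-like and from -0.47 to 0.47 in mesothelial-like cells as a library was left out. In mesothelial-like cells *Pdgfa* ranged from -0.19 to 0.16, was 0.0015 with doublets kept and 0.015 with thinned sums, and *Pdgfc* ranged from -0.073 to 0.35. Against FB-like cells, *Pdgfra* in SMC-like cells was -0.031 with unnamed clusters 3 and 5 added to the FB-like cells, and *Pdgfd* ranged from -0.31 to 0.16 and was 0.021 with doublets kept. *Pdgfd* ranged from -0.15 to 0.53 in mesothelial-like cells and was 0.067 in neural-like cells with doublets kept. The share of FB-like cells with both receptors was 1.13% at 2000 UMIs and 9.93% with cells not thinned, and without thinning it was 6.12% in SMC-like and 0.474% in mesothelial-like cells.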
